A study of Mus musculus with 14 samples.

Results

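Unplated quiescent stellate cells of the mouse liver were compared with stellate cells kept in culture for 24 h without treatment, across 11740 genes. The 7 libraries compared (4 quiescent and 3 control cultures) were taken from a series of 14. The genes were chosen from 35197 rows of the deposited tables by leaving out 26 rows named by dates, 12663 pseudogene rows and 1494 further models with a Gm number, and by asking of the 21014 rows left a mean of at least 1 TPM (the unit of the deposited tables, an abundance scaled for transcript length and library total) over the 7 libraries. The quiescent cells came from uninjured livers of C57BL/6J mice labelled LratCre+ and TdTom+, in which Cre driven from Lrat switches on a red fluorescent protein. After perfusion, digestion and a density gradient they were sorted for vitamin A and for the red protein, and RNA was taken without plating. The control cultures came from uninjured livers of mice with the strain label Balbc, for which the labels describe the gradient but no sort and no transgene. Plating lasted 5 h in 10% serum, after which the cells were held in 0.1% serum. Beside them stand 3 cultures from Balbc mice given 10 uM UDP-glucose for 24 h in 0.1% serum, and 3 whole livers, uninjured, from LratCre+, TdTom+ mice in C57BL/6J. Age and sex are not given in the sources used here. Strain, transgene, sort and deposited table thus changed together with culture, and their parts in any difference cannot be told apart. Whether a group's libraries stem from different mice or dishes is not told by the labels; its p-values therefore measure only spread among these libraries, perhaps of technical origin.

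Stellate cells are pericytes of the liver sinusoid that store vitamin A as retinyl esters in lipid droplets. On injury, or when plated on plastic, they lose the stored retinoid, build actin stress fibres and become myofibroblast-like cells that deposit collagen. Preparing them takes warm enzymes and, here, flow sorting, which are known to induce immediate early genes in many cell types.

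The quiescent and cultured libraries formed separate groups. Pearson's r between 2 libraries on the log2 scale ran from 0.984 to 0.989 among quiescent libraries, from 0.989 to 0.994 among control cultures and from 0.815 to 0.836 across the groups, over the tested genes, which are not independent replicates. Genes with at least 1 TPM numbered 12049 to 12434 per library. Mitochondrial transcripts took 4.86% to 5.66% of TPM in quiescent and 3.00% to 3.21% in cultured libraries, and cytosolic ribosomal proteins 5.12% to 5.71% and 9.52% to 10.7%. The 10 most abundant genes held 11.2% to 12.4% of TPM in quiescent and 6.73% to 7.07% in cultured libraries. Sequencing depth is unknown, since it cannot be read from TPM. In these bulk samples fewer cells of a type and less RNA per cell cannot be told apart.

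The groups differed widely across the transcriptome. Of the 11740 genes tested, 3602 (30.7%) were called changed, at an adjusted p under 0.05 by limma with Benjamini-Hochberg adjustment and a log2 fold change of 1 or more in either direction on the log2(TPM + 1) scale. Of these, 2068 (17.6% of genes tested) were higher and 1534 (13.1%) were lower in culture. The values of the groups did not overlap for 8319 genes (70.9%). The larger differences were mostly falls: 16 genes rose and 36 fell by a log2 fold change of at least 5. Genes called higher held 9.80% to 10.6% of TPM in quiescent and 29.5% to 31.5% in cultured libraries, and genes called lower 34.4% to 36.7% and 7.64% to 8.02%. Across all genes tested the median log2 fold change was 0.26, and medians of gene lists below are to be read against it. Counts of risen and fallen genes in the lists are likewise to be read against the 17.6% and 13.1% of all genes. After median-of-ratios rescaling, which centres the genes near 0, 1289 genes were called higher and 1928 lower, so that the share of calls that were higher passed from 57.4% to 40.1%. List counts after this rescaling are to be read against 1289 and 1928 of 11740 genes. With quantile normalisation the counts over all genes were 1598 and 1662.

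**Figure D1:**
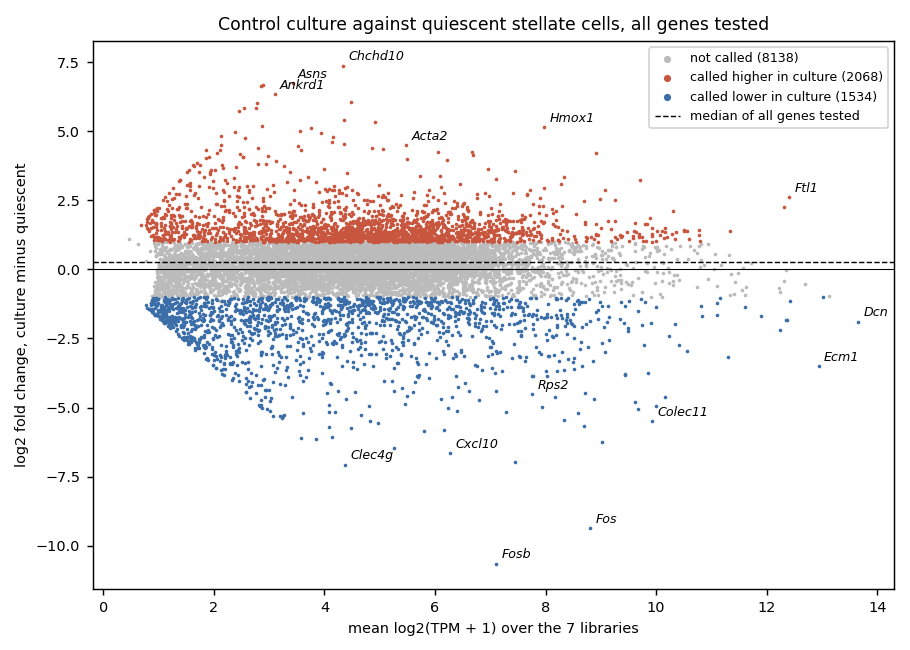
Each point is a gene tested, with the mean log2(TPM + 1) over the 7 libraries on the x axis and the log2 fold change of control culture against quiescent cells on the y axis; 2068 red points are called higher, 1534 blue points lower. The dashed line is the median of all genes (0.26), and Fosb and Fos stand lowest, at -10.65 and -9.37.

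All listed genes that mark the quiescent stellate cell were lower in culture, and 1 of them was not called. Like the lists below, this one was chosen with earlier results of these data known. Its counts therefore describe the listed genes and are no test of them. Of the 28 genes of the quiescence list all passed the filter, 27 fell and 0 rose, with a median log2 fold change of -3.19. Colec11, a secreted collectin, stood at 4936, 4731, 4861 and 5323 TPM in the 4 quiescent libraries and at 109, 116 and 103 TPM in the 3 cultures. The groups lay far apart, and the log2 fold change was -5.49 (SE 0.07, limma adjusted p = 2.17e-11). From here on, pairs of values are means ± SD over 4 quiescent and 3 cultured libraries, followed by the log2 fold change in brackets. Ngfr, the p75 neurotrophin receptor, fell from 315 ± 39.4 to 4.57 ± 0.951 TPM (-5.83), and Vipr1, a receptor for vasoactive intestinal peptide, from 1646 ± 262 to 37.2 ± 9.08 TPM (-5.44). Angptl6, which encodes a secreted angiopoietin-like protein and shares 16.8% of its exon bases with another gene model, fell from 1804 ± 104 to 47.7 ± 1.37 TPM (-5.21). Ecm1, a secreted matrix protein, fell from 22268 ± 887 to 1959 ± 55.3 TPM (-3.51). Reln, which encodes the large secreted glycoprotein reelin, fell less. Its values were 2566, 2910.1, 3345 and 3181 TPM in quiescent and 994, 871 and 942 TPM in cultured libraries (-1.67, SE 0.10, limma adjusted p = 2.16e-07). Ednrb, an endothelin receptor, was the single member not called, at 547 ± 34.4 and 395 ± 42.3 TPM (-0.47, limma adjusted p = 0.000586). The labelled cell type can be read from these genes: the summed level of 16 stellate markers ran from 62249 to 68889 TPM in quiescent and from 10478 to 11121 TPM in cultured libraries, with 0 of the 16 risen and 14 fallen. The sum was thus lower in culture, and most of it there came from 2 of the markers, Dcn and Ecm1. All 16 markers stood at 1 TPM or more in every culture, some of them low, such as Ngfr at 4.57 TPM.

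Of 22 transcription factors of the stellate lineage 18 passed the filter, and 11 fell and 0 rose (median -1.14). Nr4a1, an orphan nuclear receptor that is also an immediate early gene, fell from 1398 ± 198 to 10.1 ± 0.585 TPM (-6.97). Heyl, a Notch-responsive repressor, fell from 70.3 ± 11.3 to 2.36 ± 0.613 TPM (-4.41), Irf1 from 891 ± 181 to 67.6 ± 1.01 TPM (-3.68) and Mef2c from 18.3 ± 5.33 to 2.83 ± 1.17 TPM (-2.33). Nr2f2, the most abundant factor not called, stood at 206 ± 12.3 and 169 ± 6.18 TPM (-0.28).

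Retinoid genes fell in part. Lrat, the enzyme that esterifies retinol for storage (chr3:82892579-82903973, minus strand, GRCm38), stood at 996, 1211, 848 and 1300.3 TPM in quiescent and at 75.97, 98.4 and 87.1 TPM in cultured libraries. No cultured value came near the lowest quiescent one, and the log2 fold change was -3.62 (SE 0.15, limma adjusted p = 2.05e-08). Since the quiescent cells were sorted by a reporter that rests on Lrat-driven Cre and by vitamin A, the sort and culture cannot be told apart for this gene. Of 21 retinoid genes 13 passed the filter, and 8 fell and 0 rose (median -1.12). Aldh1a3, which makes retinoic acid, fell from 23.3 ± 1.91 to 0.332 ± 0.0994 TPM (-4.19). Bco1, which cleaves beta-carotene, was not called, at 219 ± 17.4 and 163 ± 12.8 TPM (-0.42). Genes of the lipid droplet did not fall as a group: of 20 genes 17 passed the filter, 5 rose and 2 fell (median 0.44), against 2 and 2 by median-of-ratios rescaling. G0s2, an inhibitor of the lipase encoded by Pnpla2, fell from 555 ± 55.5 to 168 ± 3.098 TPM (-1.71), and Fabp4, a fatty acid binding protein, rose from 7.51 ± 2.41 to 55.5 ± 28.8 TPM (2.66). Plin2, the main coat protein of these droplets, stood at 234 ± 22.5 and 270.4 ± 12.2 TPM (0.21) and turned to -0.069 after median-of-ratios rescaling.

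**Figure D2:**
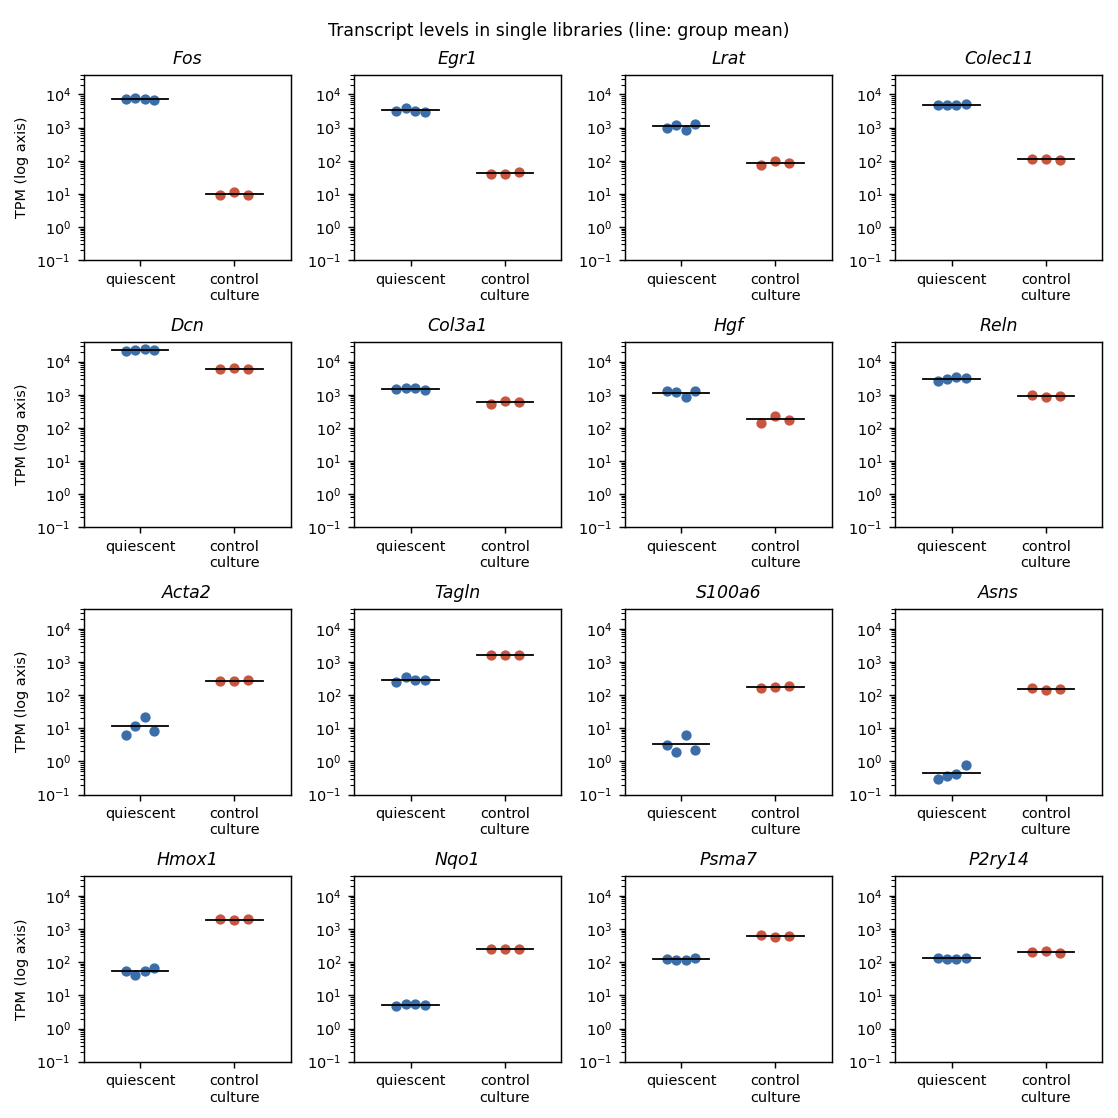
TPM of 16 genes in each library on a log axis, with quiescent libraries in blue, control cultures in red and a line at each group mean. Fos, Egr1, Lrat and Colec11 lie far lower in culture, Acta2, Asns, Hmox1 and Nqo1 far higher, and the group means of P2ry14 lie close together (131.6 and 204 TPM).

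More matrix genes were lower than higher in culture. Of 20 collagen chains 18 passed the filter, 11 fell and 1 rose (median -1.62). Col3a1, a chain of fibrillar collagen, stood at 1504, 1624, 1619 and 1431 TPM in quiescent and at 518, 663 and 613 TPM in cultured libraries, and every culture lay below every quiescent library (-1.37, SE 0.09, limma adjusted p = 5.38e-07). Col1a2 fell further, from 572 ± 41.2 to 70.9 ± 10.3 TPM (-3.001). Its partner chain Col1a1 stood at 117, 186, 202 and 195 TPM in quiescent and at 103, 128 and 114 TPM in cultured libraries. The groups overlapped and Col1a1 was not called (-0.57, limma adjusted p = 0.0139). Col14a1, a chain that decorates collagen fibrils, fell from 3081 ± 350.4 to 466 ± 44.1 TPM (-2.72), and the basement membrane chain Col4a1 was not called, at 1410.2 ± 59.2 and 1218 ± 115 TPM (-0.21).

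Of 34 proteoglycans and other matrix proteins 30 passed the filter, 21 fell and 2 rose (median -1.59). Dcn, the small proteoglycan decorin, had the highest mean level of all genes in the quiescent group, at 20489, 22331, 24271 and 23222 TPM. In culture it stood at 5818, 6334 and 6151 TPM, still among the 5 most abundant genes, and had fallen by 1.89 on the log2 scale. Bgn (biglycan) fell from 9339 ± 694 to 2016 ± 34.8 TPM (-2.21), Prelp from 3627 ± 237 to 462 ± 26.3 TPM (-2.97) and Fn1 (fibronectin) from 774 ± 139 to 95.9 ± 5.85 TPM (-2.98). Sparc was not called, at 3534 ± 224 and 1913 ± 39.4 TPM (-0.88, and called lower after median-of-ratios rescaling, at -1.17). Genes that process collagen moved less: of 22, 20 passed the filter, 5 fell and 0 rose (median -0.15). Loxl1, a lysyl oxidase that crosslinks elastin and collagen, fell from 61.6 ± 6.59 to 5.104 ± 0.84 TPM (-3.36). Serpinh1, the collagen chaperone of the endoplasmic reticulum, was not called, at 1185 ± 60.4 and 1551 ± 31.6 TPM (0.39). Among 28 proteases and inhibitors 23 passed the filter, 6 rose and 11 fell (median -0.95). Plaur, the urokinase receptor, rose from 3.92 ± 1.19 to 47.8 ± 6.26 TPM (3.34), and Adamts4, an aggrecan-cleaving protease, fell from 18.7 ± 5.37 to 0.269 ± 0.0508 TPM (-3.91). Timp1, an inhibitor of metalloproteinases, stood at 4.95, 7.25, 10.5 and 13.6 TPM in quiescent and at 21.1, 14.6 and 18.2 TPM in cultured libraries. The cultures lay above all quiescent libraries, but the log2 fold change of 0.98 missed the size asked for (limma adjusted p = 0.00872). Timp1 was called higher without quiescent library 3 (1.07), without quiescent library 4 (1.18) or without culture library 2 (1.11).

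The list of activation markers did not move one way. All 24 passed the filter, 5 rose and 9 fell (median -0.70). Acta2, smooth muscle actin (chr19:34241090-34255590, minus strand, GRCm38), stood at 6.11, 11.4, 22.1 and 8.22 TPM in quiescent and at 258, 258 and 276 TPM in cultured libraries. The spread among quiescent libraries was wide, yet the highest of them lay far below the lowest culture (4.50, SE 0.32, limma adjusted p = 8.6e-07). S100a6, a calcium-binding protein, stood at 3.16, 1.87, 6.27 and 2.27 TPM in quiescent and at 158, 180.4 and 188 TPM in cultured libraries (5.42). Vim (vimentin) rose from 744 ± 91.1 to 1769 ± 62.7 TPM (1.26), a call that was lost after median-of-ratios rescaling (0.97), while Gfap, an intermediate filament of quiescent stellate cells and astrocytes, fell from 17.01 ± 1.59 to 1.13 ± 0.203 TPM (-3.08). Des (desmin) stood at 259, 231, 234 and 215 TPM in quiescent and at 187, 189.5 and 193 TPM in cultured libraries. The groups did not overlap, but the difference was small and Des was not called (-0.30, limma adjusted p = 0.00325). Besides Acta2, S100a6 and Vim, the members that rose were Tagln and the matrix glycoprotein gene Tnc, and those that fell included the matrix genes Col1a2, Col3a1, Col5a1, Fn1, Loxl1 and Postn (Tnc, Col5a1 and Postn are named after their values were seen).

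Of 35 actin and contractile genes 34 passed the filter, 11 rose and 1 fell (median 0.49). Tpm1, a tropomyosin, rose from 236 ± 17.9 to 1399.7 ± 38.6 TPM (2.57). Tagln (transgelin) rose from 289.9 ± 39.3 to 1665 ± 4.92 TPM (2.53), though 67.9% of its exon bases lie in another gene model and the use of strand is not stated. Lmod1, which nucleates actin filaments in muscle, rose from 0.984 ± 0.315 to 12.8 ± 1.35 TPM (2.81). Smtn (smoothelin) was the one that fell, from 294 ± 30.9 to 73.8 ± 11.1 TPM (-1.98), with 16.3% of its exon bases shared. Actb, the common cytoplasmic actin, stood at 2807, 4138, 3058 and 2728 TPM in quiescent and at 3764, 3589 and 3698 TPM in cultured libraries. The groups overlapped (log2 fold change 0.23 and not called, and -0.052 after median-of-ratios rescaling). A list for YAP and serum response factor (SRF) held targets together with regulators such as Yap1 and Srf. Of its 24 genes 22 passed the filter, 4 rose and 3 fell (median -0.08), shares close to the 17.6% and 13.1% of all genes. Ankrd1, a nuclear ankyrin repeat protein, rose from 0.315 ± 0.223 to 105 ± 5.05 TPM (6.34). Ccn1, a secreted matricellular protein, fell from 2522 ± 565 to 461 ± 20.6 TPM (-2.43). Of 26 integrin and adhesion genes 25 passed the filter, 1 rose and 6 fell (median -0.13). Itgb3 fell from 167 ± 49.03 to 10.6 ± 1.003 TPM (-3.80), and Pdlim7, an actin-associated protein, rose from 84.9 ± 7.11 to 256 ± 10.6 TPM (1.59). Among 18 annexins and S100 proteins 15 passed the filter, 8 rose and 1 fell (median 1.07), and 6 rose after median-of-ratios rescaling. Anxa3 rose from 50.97 ± 2.75 to 195 ± 3.21 TPM (1.92).

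**Figure D3:**
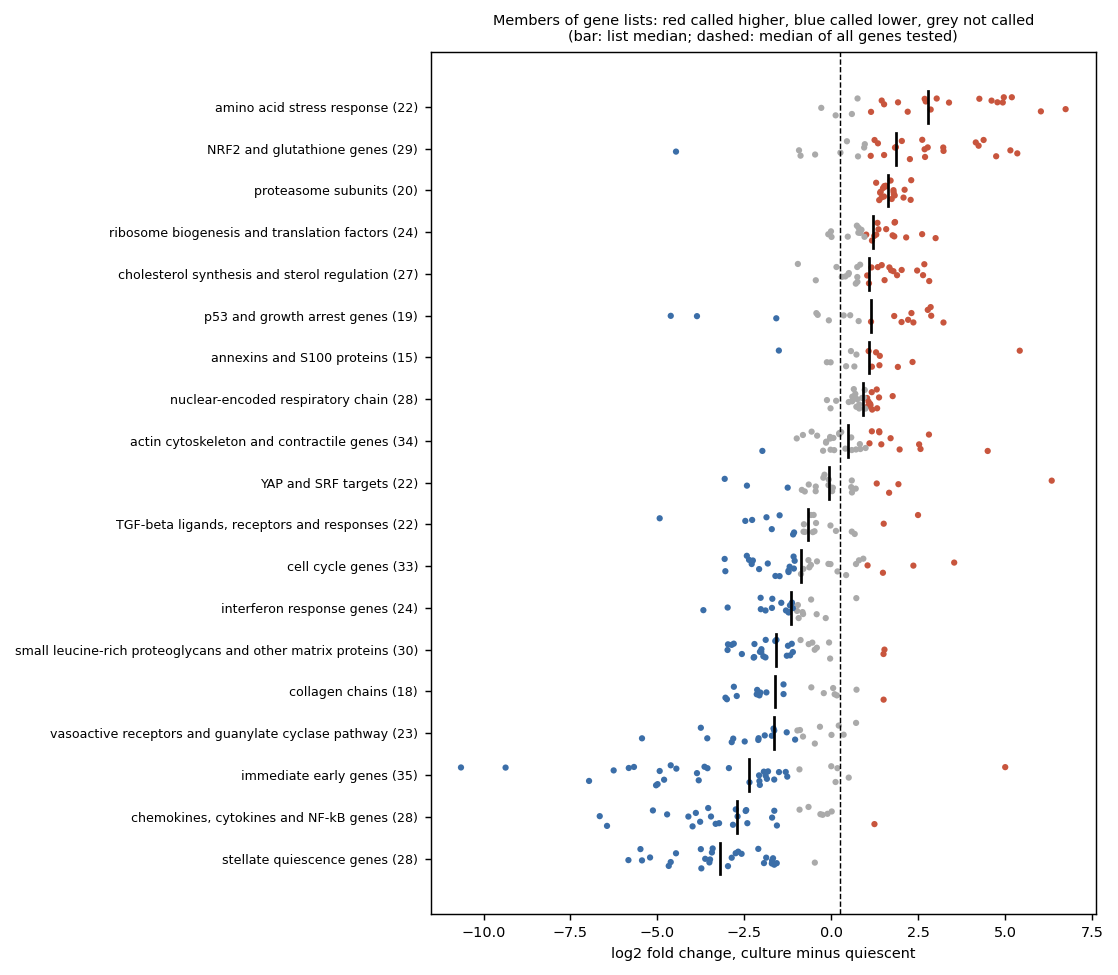
Log2 fold change (x axis) of each tested member of 19 gene lists (y axis, number of members in brackets), red where called higher, blue where called lower and grey where not called; bars are list medians and the dashed line is the median of all genes (0.26). Medians run from 2.79 for the amino acid stress response to -3.19 for stellate quiescence genes.

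Among the gene lists the highest median belonged to amino acid synthesis and its stress response. This response is run by the transcription factor ATF4, whose protein is made when amino acids are short or other stresses slow translation. It then induces genes for the uptake and synthesis of amino acids. Of 24 genes 22 passed the filter, 18 rose and 0 fell (median 2.79). Asns, asparagine synthetase, stood at 0.304, 0.356, 0.414 and 0.772 TPM in quiescent and at 162, 147 and 154 TPM in cultured libraries. It was near 0 in every quiescent library and over 100 TPM in every culture (6.74, SE 0.13, limma adjusted p = 2.59e-10). Trib3, a pseudokinase induced by ATF4, was listed at 0.278, 0.237, 0.0627 and 0 TPM in quiescent and at 73.9, 73.4 and 72.8 TPM in cultured libraries (6.03). Phgdh and Psat1, enzymes of serine synthesis, rose from 0.564 ± 0.157 to 56.03 ± 1.63 TPM (5.19) and from 2.602 ± 0.828 to 107 ± 2.603 TPM (4.93). Mthfd2, a mitochondrial enzyme of folate metabolism, rose from 3.43 ± 1.38 to 117 ± 5.804 TPM (4.78), and Chac1, which degrades glutathione, to 36.6, 33.5 and 38.1 TPM in the cultures from under 1 TPM (4.96). Atf4 itself was not called, at 452 ± 53.5 and 679 ± 14.5 TPM (0.59). A list of endoplasmic reticulum stress and secretory genes did not move with the amino acid list. All its 23 genes passed the filter, 1 rose and 0 fell, and their median of 0.25 lay at the level of all genes. It mixes chaperones with secretory genes and leaves out Atf4, Trib3 and Chac1. The unfolded protein response as a whole was therefore not measured. Hspa5, the chaperone BiP, stood at 1379 ± 159.7 and 1781 ± 159 TPM (0.37, not called).

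Promoters of the 18 risen genes were searched for TGATGNAA, the form of the element that C/EBP-ATF heterodimers bind, on both strands in the 250 bases before the RefSeq start. The motif was chosen with these results known. Of 16 genes with a RefSeq promoter, 4 held it, against 1.96% of the 9357 promoters of tested genes. Here and for the motifs below, a match is a description, not a shown site. List members that were not called were not counted, so the shares do not bear on the change in culture. The 4 stretches are shown because they belong to the list with the highest median; they are from RefSeq on GRCm38.p6, 5′ to 3′ on the gene's strand, with the motif in capitals in either orientation:
Asns (chr6:7693210-7693256, minus strand): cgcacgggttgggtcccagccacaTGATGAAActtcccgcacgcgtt
Chac1 (chr2:119351025-119351080, plus strand): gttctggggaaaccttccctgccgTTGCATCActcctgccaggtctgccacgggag
Pycr1 (chr11:120643820-120643875, minus strand): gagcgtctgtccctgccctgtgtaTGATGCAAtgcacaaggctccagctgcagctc
Slc7a11 (chr3:50443648-50443703, minus strand): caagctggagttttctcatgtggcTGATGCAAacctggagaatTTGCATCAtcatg
The motif ended or began nearest the start in Asns, 23 bases before it. Pycr1, an enzyme of proline synthesis, and Slc7a11, a cystine transporter, named here for the motif and after their values were seen, rose from 2.25 ± 0.479 to 13.9 ± 2.14 TPM (2.20) and from 0.25 ± 0.242 to 2.56 ± 0.452 TPM (1.52).

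Genes of the oxidative stress response and of iron storage rose as well. NRF2 is a transcription factor that electrophiles release from degradation, and it induces enzymes of glutathione and quinone metabolism. Of 30 genes 29 passed the filter, 20 rose and 1 fell (median 1.86). Nqo1, a quinone reductase, stood at 4.83, 5.33, 5.38 and 5.06 TPM in quiescent and at 245, 252 and 253 TPM in cultured libraries. The groups were tight and far apart (5.35, SE 0.08, limma adjusted p = 4.96e-11). Hmox1, heme oxygenase, stood at 54.3, 41.2, 53.3 and 69.3 TPM in quiescent and at 1979, 1884 and 1963 TPM in cultured libraries (5.15). Gsta3, a glutathione transferase, rose from 0.484 ± 0.343 to 38.1 ± 5.45 TPM (4.74). Ftl1 and Fth1, the ferritin chains, were the most abundant genes of the cultures. Ftl1 rose from 2489 ± 205 to 15264 ± 1071 TPM (2.62; 34.6% of its exon bases overlap another model) and Fth1 from 2599 ± 124 to 12477 ± 809 TPM (2.26). Sod3, the secreted superoxide dismutase and a gene of quiescent stellate cells, went the other way, from 1591 ± 162 to 70.9 ± 4.27 TPM (-4.47). The motif TGACNNNGC, the core of the antioxidant response element, was found on either strand in 5 of 17 promoters of the risen genes and in 12.3% of all. Sqstm1, an autophagy receptor, rose from 671 ± 35.9 to 2934 ± 147 TPM (2.13; 17.3% of exon bases shared). In its lysosome and autophagy list 7 of 24 genes rose and 0 fell, and 3 rose after median-of-ratios rescaling. The rescaled count lay close to the share of all genes (1289 of 11740).

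All 20 proteasome subunits passed the filter and rose, by log2 fold changes of 1.29 to 2.30 (median 1.64). Psma7, a subunit of the core particle, stood at 129, 115, 119.8 and 132 TPM in quiescent and at 652, 575 and 618 TPM in cultured libraries (2.30, SE 0.07, limma adjusted p = 5.17e-09). Psmd11 and Psmd14, subunits of the regulatory particle, rose from 50.4 ± 0.375 to 221 ± 17.4 TPM and from 40.2 ± 2.24 to 173 ± 6.45 TPM. All 20 subunits were still called after median-of-ratios rescaling, and 16 when values were centred by exon length. The antioxidant motif above stood in 2 of 17 of their promoters, a share close to that of all promoters. Of 20 heat shock proteins all passed the filter, 6 rose and 2 fell (median 0.63). Hspb1, a small heat shock protein, rose from 245 ± 95.1 to 1677 ± 164 TPM (2.86), and the mitochondrial chaperones Hspa9 and Hspd1 from 90.1 ± 8.06 to 597 ± 28.2 TPM and from 105 ± 17.9 to 417 ± 23.3 TPM.

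Of 24 genes of ribosome biogenesis and translation 14 rose and 0 fell (median 1.20), and 11 rose after median-of-ratios rescaling. Eif4ebp1, an inhibitor of cap-dependent translation, rose from 27.6 ± 3.54 to 228 ± 25.6 TPM (3.001), and Fbl, the methylase fibrillarin of the nucleolus, from 49.9 ± 1.74 to 226 ± 11.3 TPM (2.15). Among 28 nuclear genes of the respiratory chain 11 rose and 0 fell (median 0.91), but 4 rose after median-of-ratios rescaling. Of all 11740 genes, 1289 were called higher after that rescaling. Cox5a, a subunit of cytochrome oxidase, rose from 89.5 ± 4.598 to 307 ± 24.9 TPM (1.77; 12.8% of exon bases shared). Chchd10, a small protein of the mitochondrial intermembrane space, showed the largest rise of all named genes, from 0.493, 1.48, 0.975 and 2.57 TPM in quiescent to 413, 337 and 379 TPM in cultured libraries (7.38; 11.4% of exon bases shared). Of 23 genes of glycolysis 21 passed the filter, 8 rose and 1 fell (median 0.52). Eno2, the neuronal form of enolase, rose from 0.895 ± 0.229 to 39.1 ± 7.41 TPM (4.40), and Slc2a1, a glucose transporter, from 36.1 ± 5.24 to 120.3 ± 0.472 TPM (1.72).

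Fold changes over all genes varied with gene length. Genes were split into 4 bins of nearly equal number by annotated exon bases. In the bin of shortest genes (204 to 2870 bases) the median log2 fold change was 0.57 and 31.1% of genes were called higher. In the bin of longest genes (6886 bases and more) the median was -0.01 and 7.21% were higher. The share called lower ran from 12.8% to 13.8% over the 4 bins. When culture values were centred within classes of exon length, an alternative chosen after seeing the data, 1093 genes were called higher and 1965 lower. Of the lists above, respiratory chain genes then held 1 rise and 0 falls, amino acid stress genes 17 and 0, and NRF2 and glutathione genes 18 and 4. The part of length in these results was not tested.

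Cholesterol synthesis genes rose from low levels. Of 28 genes 27 passed the filter, 15 rose and 0 fell (median 1.08), with 12 and 1 after median-of-ratios rescaling. Fdps, which makes farnesyl diphosphate, rose from 12.7 ± 0.749 to 74.6 ± 2.62 TPM (2.47; 26.7% of exon bases shared). Sqle, squalene epoxidase, stood at 1.25, 1.73, 1.62 and 1.23 TPM in quiescent and at 13.1, 16.2 and 13.7 TPM in cultured libraries, with no overlap (2.64, SE 0.14, limma adjusted p = 1.38e-07). Srebf1, a regulator of lipid synthesis, was not called, at 66.5 ± 4.82 and 82.2 ± 3.82 TPM (0.30). The motif CCAAT, on either strand, stood in 9 of the 9 promoters found for risen genes and in 36.8% of all promoters.

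The largest falls of single genes were those of the immediate early genes Fosb and Fos. Immediate early genes are induced within minutes of a stimulus with no need of new protein. Of 36, 35 passed the filter, 29 fell and 1 rose (median -2.35). Fos (chr12:85473890-85477273, plus strand, GRCm38), a subunit of the AP-1 factor, stood at 7209.8, 7877, 7088 and 6744 TPM in quiescent and at 9.25, 11.4 and 9.25 TPM in cultured libraries. Fos was high in every quiescent library and low in every culture (-9.37, SE 0.09, limma adjusted p = 4.97e-12). Its relative Fosb stood at 2755, 3631, 3011 and 3731 TPM in quiescent and at 0.868, 1.19 and 1.03 TPM in cultured libraries (-10.65). Egr1, a zinc finger factor, fell from 3348 ± 349 to 42.7 ± 3.94 TPM (-6.26), and Zfp36, which speeds the decay of cytokine transcripts, from 2263 ± 297 to 43.3 ± 5.99 TPM (-5.67). The member that rose was Fosl1, from 1.75 ± 0.922 to 84.1 ± 2.799 TPM (5.003), which shares 57.2% of its exon bases with another model. The AP-1 motif TGANTCA stood on either strand in 1 of 25 promoters of the fallen genes, against 4.05% of all. Digestion and sorting came before RNA extraction in the quiescent group, and their part in these levels cannot be told apart from that of culture.

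Inflammatory genes were lower in culture too. Of 33 chemokines, cytokines and NF-kB genes 28 passed the filter, 21 fell and 1 rose (median -2.72). Cxcl10, a chemokine for T cells, stood at 515, 844, 499 and 453 TPM in quiescent and at 5.03, 3.57 and 5.21 TPM in cultured libraries, and the quiescent library 2 was above the others (-6.66, SE 0.20, limma adjusted p = 3.85e-09). Cxcl14 fell from 262 ± 50.1 to 1.96 ± 0.0185 TPM (-6.45), Cxcl1 from 460.1 ± 122 to 16.7 ± 5.61 TPM (-4.72) and Nfkbiz, an atypical inhibitor of NF-kB, from 397 ± 107 to 10.1 ± 0.578 TPM (-5.13). Of 26 complement and coagulation genes 18 passed the filter, 14 fell and 3 rose (median -2.43). C1s1, a protease of the complement C1 complex, fell from 510.2 ± 84.7 to 23.1 ± 2.78 TPM (-4.40; 18.4% of exon bases shared). Of 15 genes of antigen presentation 14 passed the filter, 11 fell and 0 rose (median -1.66). B2m, the light chain of class I molecules, was among the 5 most abundant genes of both groups and fell from 11259.7 ± 1259 to 5576 ± 378 TPM (-1.01). That call was lost without quiescent library 3 (-0.96), without quiescent library 4 (-0.97) or without culture library 2 (-0.95), and with quantile normalisation (-0.15). The class I heavy chain H2-D1 was not called, at 4123 ± 319.96 and 2145 ± 148 TPM (-0.94, and called lower after median-of-ratios rescaling, at -1.22).

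Interferon response genes fell together. Of 25, 24 passed the filter, 15 fell and 0 rose (median -1.16), and 20 fell after median-of-ratios rescaling. Ifit3, an antiviral protein with tetratricopeptide repeats, stood at 361, 393, 262 and 402 TPM in quiescent and at 58.3, 38.9 and 36.1 TPM in cultured libraries, with no overlap (-2.98, SE 0.18, limma adjusted p = 3.31e-07). Gbp3, a guanylate-binding protein, fell from 118 ± 20.2 to 28.3 ± 5.62 TPM (-2.03). Bst2, the antiviral membrane protein tetherin, was the most abundant member not called, at 315 ± 10.5 and 522 ± 73.2 TPM (0.72). The core of the interferon-stimulated response element, searched on both strands as GAAA, any 2 bases and GAAA again, stood in 7 of 13 promoters of the fallen genes, against 2.66% of all promoters. Genes listed for their response to interferon may hold this element whether they fell or not. The motif was chosen with these results known. Stretches of 3 of them are shown as examples of how the repeats lie, from RefSeq on GRCm38.p6 and 5′ to 3′ on the gene's strand, with the motif in capitals in either orientation:
Ifit3 (chr19:34583349-34583406, plus strand): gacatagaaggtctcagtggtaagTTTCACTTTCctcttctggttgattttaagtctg
Isg15 (chr4:156200863-156200920, minus strand): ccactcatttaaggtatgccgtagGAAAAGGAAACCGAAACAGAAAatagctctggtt
Gbp3 (chr3:142559975-142560032, plus strand): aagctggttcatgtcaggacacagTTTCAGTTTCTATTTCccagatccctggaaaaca
In Isg15 and Gbp3 the matches overlap each other. Isg15, a ubiquitin-like protein named here for its promoter and after its values were seen, fell from 289.7 ± 69.2 to 124 ± 40.5 TPM (-1.23).

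More cell cycle genes were lower than higher at 24 h. All 33 passed the filter, 16 fell and 4 rose (median -0.87). Their summed level was nonetheless higher in culture, at 867 to 990 TPM in quiescent and 1170 to 1222 TPM in cultured libraries. Cdk1, the mitotic kinase, stood at 31.8, 42.3, 41.7 and 36.4 TPM in quiescent and at 4.14, 3.59 and 3.21 TPM in cultured libraries (-3.07, SE 0.13, limma adjusted p = 2.82e-08). Mki67 fell from 5.31 ± 1.25 to 0.153 ± 0.0445 TPM (-2.43), and Cdkn2b, an inhibitor of cyclin D kinases, rose from 2.701 ± 0.701 to 41.5 ± 3.96 TPM (3.54). With a pseudocount of 5, 7 cell cycle genes were called lower. Of 19 genes of the p53 response and growth arrest all passed the filter, 10 rose and 3 fell (median 1.14). Eda2r, a receptor of the tumour necrosis factor family, rose from 3.51 ± 0.503 to 41.5 ± 7.94 TPM (3.23) and Aen, a nuclease, from 24.4 ± 2.17 to 185 ± 3.74 TPM (2.87). Gadd45b and Btg2, which are also early response genes, fell from 313 ± 26.4 to 11.8 ± 0.799 TPM and from 703 ± 141 to 46.6 ± 1.396 TPM.

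Of 34 growth factor genes and receptors 27 passed the filter, 14 fell and 5 rose (median -1.16). Hgf, the hepatocyte growth factor that stellate cells supply, stood at 1296, 1226, 866 and 1286 TPM in quiescent and at 139, 235 and 177 TPM in cultured libraries. Quiescent library 3 was lowest of its group, and all cultures lay below it (-2.68, SE 0.18, limma adjusted p = 6.95e-07). Igfbp3, which binds insulin-like growth factors, fell from 994 ± 163 to 94.99 ± 9.44 TPM (-3.36), and Gdf15, a stress-induced cytokine, rose from 4.36 ± 0.718 to 124 ± 15.6 TPM (4.54). Pdgfrb, a receptor through which platelet-derived growth factor acts on stellate cells, was not called, at 309 ± 40.4 and 173 ± 25.1 TPM (-0.83, and called lower after median-of-ratios rescaling, at -1.11).

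Of 23 genes of the TGF-beta pathway 22 passed the filter, 8 fell and 2 rose (median -0.67). The ligand gene Tgfb3 rose from 15.96 ± 1.92 to 94.4 ± 6.48 TPM (2.50; 12.4% of exon bases shared). Of the genes that TGF-beta induces, Tgfbi, a secreted adhesion protein, stood at 4627, 4646, 3749 and 4679 TPM in quiescent and at 134, 148 and 148 TPM in cultured libraries (-4.94). Of 28 Wnt and Hedgehog genes 18 passed the filter, 9 fell and 0 rose (median -0.89). Hhip, which binds and restrains Hedgehog ligands, fell from 144 ± 17.5 to 12.3 ± 0.601 TPM (-3.43). Of 12 Notch genes 10 passed the filter, 5 fell and 0 rose (median -1.03), and Hes1, a target of Notch, fell from 479 ± 53.9 to 52.3 ± 6.79 TPM (-3.17).

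Stellate cells respond to vasoactive and neural signals. Of 27 genes of vasoactive receptors and their signalling 23 passed the filter, 14 fell and 0 rose (median -1.64). Rgs5, a brake on G protein signalling in pericytes, stood at 2474, 2679.7, 2521 and 3768 TPM in quiescent and at 190.3, 229 and 207 TPM in cultured libraries (-3.75), and Pth1r, a receptor for parathyroid hormone, fell from 919 ± 63.99 to 125 ± 4.998 TPM (-2.86). Of 25 neural-type genes 19 passed the filter, 11 fell and 3 rose (median -1.17). Of 25 purinergic genes 16 passed the filter, 6 fell and 2 rose (median -0.54). P2ry14, the receptor for UDP-glucose on which the series centres, stood at 133, 126, 129 and 137 TPM in quiescent and at 201, 218 and 194 TPM in cultured libraries. Every culture lay above every quiescent library, but the difference was below the size asked for (0.63, SE 0.07, limma adjusted p = 1.29e-05), and it was 0.35 after median-of-ratios rescaling. P2rx7, an ATP-gated channel, rose from 2.75 ± 1.03 to 22.5 ± 5.65 TPM (2.66). Adora2a, an adenosine receptor, and Nt5e, the enzyme that makes adenosine outside the cell, fell from 96.8 ± 12.9 to 15.5 ± 1.13 TPM and from 179 ± 25.5 to 20.5 ± 3.46 TPM.

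Markers of other cell types of the liver were measured beside these lists. Of 16 markers of sinusoidal endothelial cells 15 fell and 0 rose (median -4.07), and their summed level was 490 to 1196 TPM in quiescent libraries, highest in library 2, and 101 to 115 TPM in cultures. All 16 stood at 1 TPM or more in every quiescent library, but 5 in each control culture, so most of the sum in culture came from few of them. The log2 fold change of the marker not called was -0.41. Clec4g, a lectin of these endothelial cells, stood at 146, 282, 197 and 96.7 TPM in quiescent and at 0.418, 0.114 and 0.266 TPM in cultured libraries, and Stab2, their scavenger receptor, was listed at 0 in all cultures. Fcgr2b and Kdr, also endothelial, fell from 99.4 ± 58.3 to 0.265 ± 0.127 TPM and from 35.4 ± 22.2 to 0.311 ± 0.171 TPM. All 4 quiescent libraries thus held endothelial transcripts, and the falls of Clec4g, Fcgr2b and Kdr, with those of Wnt2 (-2.02) and Dll4 (-2.91), are given beside these sums. Their part in other results was not tested. Of 15 Kupffer cell and macrophage markers 14 fell and 1 rose, and the summed level was 158 to 274 TPM in quiescent and 75.9 to 88.0 TPM in cultured libraries. Clec4f, the marker that defines Kupffer cells, stood at 41.8, 19.6, 30.4 and 39.9 TPM in quiescent libraries and was listed at 0 in all cultures. The rise was of Cd68, from 35.3 ± 9.22 to 77.6 ± 8.196 TPM (1.14, and 0.87 and no longer called after median-of-ratios rescaling), and it made up most of the sum in culture. Class II genes such as Cd74, at 35.1 ± 12.01 and 2.79 ± 0.958 TPM, moved with these macrophage markers.

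Of 17 hepatocyte markers 10 passed the filter, 1 rose and 3 fell, and the summed level was 64.7 to 84.2 TPM in quiescent and 245 to 281 TPM in cultured libraries, against 77393 to 108707 TPM in whole liver. Ass1, an enzyme of arginine synthesis that many cells express, was the one that rose, from 48.7 ± 10.4 to 235 ± 8.22 TPM (2.27), while Alb (albumin) stood at 11.2, 4.52, 4.99 and 6.25 TPM in quiescent and at 0.12, 0.392 and 0.56 TPM in cultured libraries. Of 9 markers of vascular smooth muscle 5 passed the filter, 2 rose and 2 fell, and the sum was 898 to 990 TPM in quiescent and 245 to 253 TPM in cultured libraries. Markers of T and NK cells summed to 3.35 to 6.78 TPM over the 7 libraries and of B and plasma cells to at most 2.12 TPM.

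**Figure D4:**
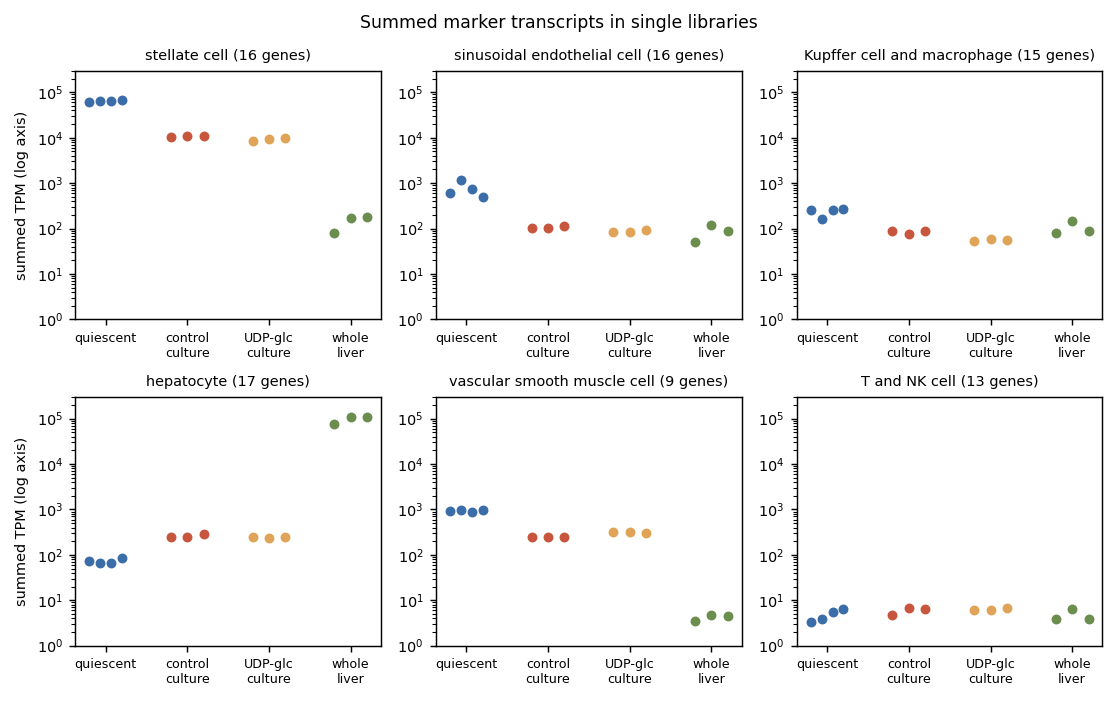
Summed TPM (log axis) of the markers of 6 cell types in each library of quiescent cells, control cultures, cultures with UDP-glucose and whole liver. Stellate markers lie highest in the quiescent libraries (62249 to 68889 TPM), and endothelial markers range there from 490 to 1196 TPM.

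Near-identical sequences held different shares of TPM in the groups. Rows left out as pseudogenes or Gm-numbered models held 3.51% to 4.31% of TPM in quiescent and 6.94% to 7.48% in cultured libraries. Of 797 such rows with a mean of at least 1 TPM, 437 matched the transcripts of 309 tested genes at 95% identity or more over at least 80% of their length. Of them 19 stood below 10 TPM in every quiescent library and above 100 TPM in every culture, and 1 stood the other way round. All 19 were also below 10 TPM in the whole liver libraries and at 164 TPM or more in the cultures with UDP-glucose. The whole livers share strain and transgene with the quiescent cells but have a deposited table of their own. The cultures with UDP-glucose share strain, culture and deposited table with the control cultures. Which of these the copies follow cannot be told apart. Rps2, a ribosomal protein (chr17:24718116-24721929, plus strand, GRCm38), stood at 818, 834, 884 and 781 TPM in quiescent and at 34.8, 36.6 and 33.7 TPM in cultured libraries, which alone gave a log2 fold change of -4.53. Its copy Rps2-ps10 held 5.84 TPM in quiescent and 3606 TPM in cultured libraries on average, and with all copies added the gene rose from 836 to 3647 TPM (2.12). Rps18 turned in the same way from -3.85 to 1.51 and Rpl3 from -2.35 to 0.54. Gapdh was not called on its own row (0.51) and was called higher with its copies added (1.71).

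With the copies added, the calls of 57 of the 309 genes changed, and 6 turned from lower to higher. Among the 31 cytosolic ribosomal proteins of the list, 19 were called higher and 3 lower on their own rows, against 22 and 0 with the copies added. On their own rows 10 were higher and 4 lower after median-of-ratios rescaling, and 3 higher and 4 lower when centred by exon length. Other genes with near-identical relatives or at or near 0 in most quiescent libraries were as follows. Hmga1b was listed at 0 in all quiescent libraries and at 119.9, 84.7 and 97.9 TPM in cultures, and with its near-identical gene Hmga1 the sum was 14.7 ± 2.38 TPM (SD, n = 4) in quiescent and 146 ± 16.2 TPM (SD, n = 3) in cultured libraries. Tpm3-rs7 stood at 0.383, 0.553, 0.274 and 66.1 TPM in quiescent and at 254, 229 and 244 TPM in cultured libraries, with quiescent library 4 apart from the rest, and summed with Tpm3 the level was 212 ± 13.0 (SD, n = 4) and 417 ± 7.34 TPM (SD, n = 3). H2-Q2, a class I gene, stood at 0, 0, 0 and 0.097 TPM in quiescent and at 106, 97.9 and 109 TPM in cultured libraries, and Ifi202b, an interferon-induced DNA sensor, was listed at 0 in all quiescent libraries and at 54.7, 52.5 and 48.1 TPM in cultures. Of 10 genes with known alleles in C57BL/6J or BALB/c 6 passed the filter, 3 rose and 0 fell. Nnt, the mitochondrial transhydrogenase that C57BL/6J mice carry in a deleted form, rose from 12.6 ± 3.21 to 37.4 ± 1.96 TPM (1.53; 47.4% of exon bases shared). Strain, sort, deposited table and culture cannot be told apart for these genes.

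**Figure D5:**
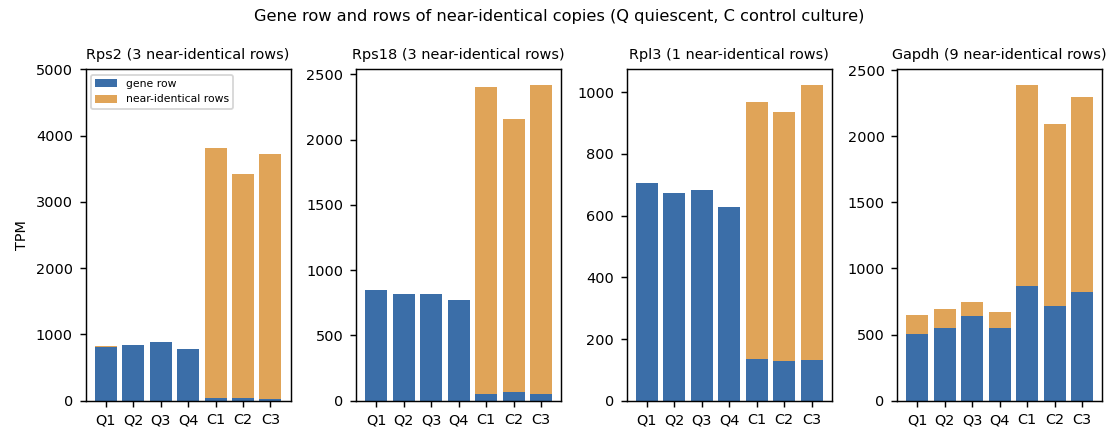
TPM of the gene row (blue) and of its near-identical rows (orange), stacked, for Rps2, Rps18, Rpl3 and Gapdh in quiescent libraries Q1 to Q4 and control cultures C1 to C3. The gene row of Rps2 averages 35.01 TPM in culture, where its copy Rps2-ps10 averages 3606 TPM.

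The 3 cultures with UDP-glucose were compared with the same quiescent libraries, so values are given side by side only. Against quiescent cells 3650 of 11741 genes (31.1%) were called, 1995 higher and 1655 lower. Fos stood at 11.9 ± 1.47 TPM there and Colec11 at 68.7 ± 4.12 TPM, beside 9.98 ± 1.26 TPM and 109.6 ± 6.35 TPM in control cultures. Asns stood at 161 ± 3.71 TPM and Nqo1 at 223 ± 5.46 TPM, beside 154 ± 7.497 TPM and 249.8 ± 4.32 TPM. Acta2 stood at 680.3 ± 29.5 TPM beside 264 ± 10.1 TPM, and P2ry14 at 266 ± 12.2 TPM beside 204 ± 12.2 TPM.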

How the data were processed

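RNA sequencing of 13 bulk libraries was deposited by the authors as 3 tables of TPM, and 7 of those libraries were compared here. The TPM values were made before deposit, and bcl2fastq 2.19, kallisto 0.44.0, Cell Ranger and DESeq2 are the tools named, with the build GRCm38, per the submitters' processing notes. The annotation release and the use of strand are not given in the sources used here. Libraries were grouped by their labels and numbered in accession order. The members and gene lists were chosen with earlier results of these data known.

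Differences were tested two-sided with limma 3.58.1 (R 4.3.3, variance trend) on log2(TPM + 1) over all 11740 genes that averaged 1 TPM or more, with Benjamini-Hochberg adjustment. Genes were called at an adjusted p under 0.05 and a log2 fold change of 1 or more in size. A fold change on this scale understates that of low genes. The same fit was also run on simulated data built from the means and spreads of these libraries. Far fewer genes were changed there than were called here, and its outcome is not given. TPM keeps no depth, so no count model and no counting interval was used. Means are given ± SD with n = 4 quiescent and n = 3 cultured libraries. Numbers in brackets after a pair of means are log2 fold changes.

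Named genes were P2ry14, Acta2, Col1a1, Col3a1, Lrat, Des, Timp1, Reln, Hgf, Fos and Actb, the 20 largest rises and 20 largest falls (at least 20 TPM in the higher group, no overlap), the 5 most abundant per group, up to 4 called members of each list and its most abundant member not called, and 3 markers per cell type. A selection of these is printed. Exon overlap and lengths are from GENCODE M21, computed with bedtools 2.31.1, and near-identical rows were matched with minimap2 2.31. Motifs were searched in the 250 bases before RefSeq starts. Alternatives were other pseudocounts, filters, scalings, variance models and each library left out.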

Additional observations from a re-analysis of the deposited data

Results flagged for a closer look

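For 10 of the genes named, 1 quiescent library stood apart from the other 3, with a gap to its nearest neighbour that, as a share of the range of the 4 libraries, passed the critical value of Dixon's test. Chance gives such a gap in about 1 in 20 groups, and 137 genes were checked. The groups of 3 cultures were not tested.

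Quiescent library 2 was highest for Cxcl10 (843.5 TPM), Kdr (68.3 TPM), Tgfb3 (18.8 TPM) and Tpm1 (262 TPM), and summed endothelial markers were also highest in it. Quiescent library 3 was lowest for Hgf (866 TPM) and Tgfbi (3749 TPM). Quiescent library 4 was highest for Rgs5 (3769 TPM), Slc2a1 (43.9 TPM) and Tpm3-rs7 (66.1 TPM), the near-identical relative of Tpm3. In H2-Q2 quiescent library 4 held 0.0970 TPM and the other 3 were listed at 0.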

How the results depend on the processing

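The 2068 genes called higher became 1289 after median-of-ratios rescaling, 5533 with no minimum fold change and 1093 when centred by exon length. The 1534 called lower became 1022 with a pseudocount of 5 and 2986 with no minimum fold change. Leaving out 1 library at a time gave 2044 to 2113 higher and 1464 to 1620 lower. Exon length centring and the adding of near-identical copies were chosen after seeing the data. With copies added 6 calls turned direction, and under the other alternatives no called gene was called in the opposite direction.

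After median-of-ratios rescaling and after length centring, Actb turned to -0.052 and -0.20, Plin2 to -0.069 and -0.15, and the median of the endoplasmic reticulum list to -0.036 and -0.19. Length centring turned Serpinh1 to -0.13 and the hepatocyte list median to -0.49, and with 1 library left out at a time that median ran from -0.44 (without culture library 3) to 0.58. The median of the YAP and SRF list then ran from -0.21 to 0.047 (without culture library 1). With copies added Rps2 turned to 2.12, Rps18 to 1.51 and Rpl3 to 0.54. The cause was not tested. With a pseudocount of 5 the calls of Mki67 (-0.99), Wnt2 (-0.87) and Slc7a11 (0.52) were lost. No paired analysis was possible because the labels give library codes and no replicate numbers shared between the groups. Depth is unknown, so no limit from it is given.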

Other observations

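Other gene groups showed smaller or mixed differences. Of all genes tested 17.6% were called higher and 13.1% lower, with a median log2 fold change of 0.26. Of 18 genes of tubulins and intermediate filaments 16 passed the filter, 6 rose and 1 fell (median log2 fold change 0.83), and 3 rose after median-of-ratios rescaling. Of 22 genes of fatty acid synthesis and oxidation 21 passed the filter, 3 rose and 0 fell (median 0.31). Of 16 genes that respond to low oxygen 14 passed the filter, 3 rose and 0 fell (median 0.41). The rises in the fatty acid and low oxygen lists were thus close to the share of all genes. Of 23 genes of bone morphogenetic protein signalling, with the Id genes, 18 passed the filter, 6 fell and 2 rose (median -0.44).

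Few markers of further cell types passed the filter. Of 9 cholangiocyte markers 2 passed, and 1 rose and 0 fell. Of 13 markers of portal fibroblasts and mesothelial cells 5 passed, and 1 rose and 3 fell. Of 10 erythroid and platelet markers 5 passed, and 3 rose and 2 fell. Of 11 neutrophil and dendritic cell markers the 1 that passed was Bst2, which is also an interferon response gene.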
